A study of Homo sapiens with 18 samples.

Results

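Defensins are small cationic antimicrobial peptides of innate immunity, and 6 of their genes on the short arm of chromosome 8 are described here: DEFA1, DEFA3, DEFA4, DEFA5, DEFA6 and DEFB1. They were chosen by name from the 20098 protein-coding genes on chromosomes 1 to 22 and X, by a rule that uses no measured value. The cells were HL-60/S4, an established human myeloid leukemia line, grown undifferentiated in all groups, which by the labels differ in protocol and antibody. Antibodies to the linker histones H1.2 or H1.5 were used on formaldehyde-fixed cells by xChIP, in which the chromatin was sonicated before the antibody was added, and by xxChIP, in which the antibody was bound inside fixed, permeabilized cells and held by a second fixation before the chromatin was sonicated. Each protocol was run with each antibody, which gives 4 groups of 3 replicates (12 of 18 samples, the other 6 being Input samples, not used here). Both antibodies were rabbit polyclonals raised against the N-terminal part of the histone.

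Neutrophil precursors in the marrow make large amounts of alpha-defensins at the promyelocyte stage and store them in azurophil granules. Paneth cells at the base of the small-intestinal crypts make other alpha-defensins, and DEFB1 encodes a beta-defensin that epithelia produce constitutively. The genes lie side by side, and the stretch that holds DEFA1 and DEFA3 is repeated in tandem, with a copy number that varies between human chromosomes. The members thus comprise 3 myeloid genes (DEFA1, DEFA3, DEFA4), 2 intestinal genes (DEFA5, DEFA6) and 1 epithelial gene (DEFB1). Linker histones bind nucleosomes at the entry and exit of the DNA and are abundant in compact chromatin. The peak lists hold no expression values, so neither the activity of these genes nor the cell type could be checked against markers here.

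The values analysed here are the positions of merged peaks, 1 list per group, with 142926 (H1.2) and 139938 (H1.5) peaks in xChIP, and 143193 (H1.2) and 138491 (H1.5) in xxChIP. The lists give no read number, score or replicate, so the depth behind each peak is unknown. No spread between replicates could be computed, so no test was possible, and every difference below is a description of 4 merged lists. A value of 0 means that no peak was called there, not that the histone was absent. The lists cover the known sequence unequally (26.4%, 16.3%, 20.2% and 17.2%, in the order above), and each member is therefore set beside all genes in the same list.

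All 6 genes are transcribed from the minus strand, and their transcription start sites (TSS) span 178803 bp of hg19. In order of position they are DEFB1 (ENSG00000164825) at chr8:6728114-6735458, DEFA6 (ENSG00000164822) at chr8:6782219-6783598, DEFA4 (ENSG00000164821) at chr8:6793342-6795828, DEFA1 (ENSG00000206047) at chr8:6835171-6837614, DEFA3 (ENSG00000239839) at chr8:6873391-6875819 and DEFA5 (ENSG00000164816) at chr8:6912826-6914261. DEFB1 is the longest at 7345 bp, whereas the alpha-defensin genes measure 1380 to 2487 bp. The myeloid genes have 3 exons and the other members 2. Their promoters, taken as TSS ± 1000 bp, are poor in CpG, with an observed/expected ratio from 0.138 (DEFA5) to 0.24 (DEFA4) against a median of 0.612 over 20085 promoters. The GC content of these promoters runs from 39.9% (DEFA5) to 54% (DEFB1), against a median of 55%.

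Peaks of xxChIP reached the body of 4 members (DEFA1, DEFA3, DEFA6 and DEFB1), peaks of xChIP reached only DEFB1, and no list had a peak in DEFA4 or DEFA5. Per list, xChIP H1.2 overlapped 1 of the 6 genes where it overlapped 82.9% of all protein-coding genes, and xChIP H1.5 overlapped 0 of 6 against 70.3%. In xxChIP, H1.2 overlapped 2 of 6 against 60.6%, and H1.5 overlapped 2 of 6 against 58%. Genes of 1 to 10 kb, the length range of the members, are the closer comparison, and of those 4727 genes 55.9% held a peak of xChIP H1.2, 28.3% of xChIP H1.5, 13.9% of xxChIP H1.2 and 15.1% of xxChIP H1.5. The members' counts lay below this background in both xChIP lists and above it in both xxChIP lists. With 6 genes and no test, they cannot be set apart from it. In each xxChIP list 1 of the 2 genes is a repeated copy. These are DEFA3 for H1.2 and DEFA1 for H1.5, where 26.2% and 1.96% of 50-mers (stretches of 50 bp) occur once in the genome.

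Promoters were overlapped at 2 of 6 members by xChIP H1.2 (DEFB1 and DEFA4), at 0 by xChIP H1.5, at 2 by xxChIP H1.2 (DEFA6 and DEFA3) and at 1 by xxChIP H1.5 (DEFA1). Over all 20098 promoters the shares were 48.2%, 21.6%, 8.78% and 7.92%, in the same order. With 6 promoters and no test, the members' counts cannot be set apart from these shares, and no set of CpG-poor promoters was compared. In the promoter windows of DEFA3 and DEFA1, 37.7% and 9.2% of 50-mers occur once in the genome. DEFA5 was the 1 member whose promoter held no peak of any list. Summed over the 17521 bp of the 6 genes, xChIP peaks covered 41.9% (H1.2) and 0% (H1.5), while xxChIP peaks covered 21.4% (H1.2) and 20.2% (H1.5). The xChIP H1.2 value comes from DEFB1 alone.

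**Figure D1:**
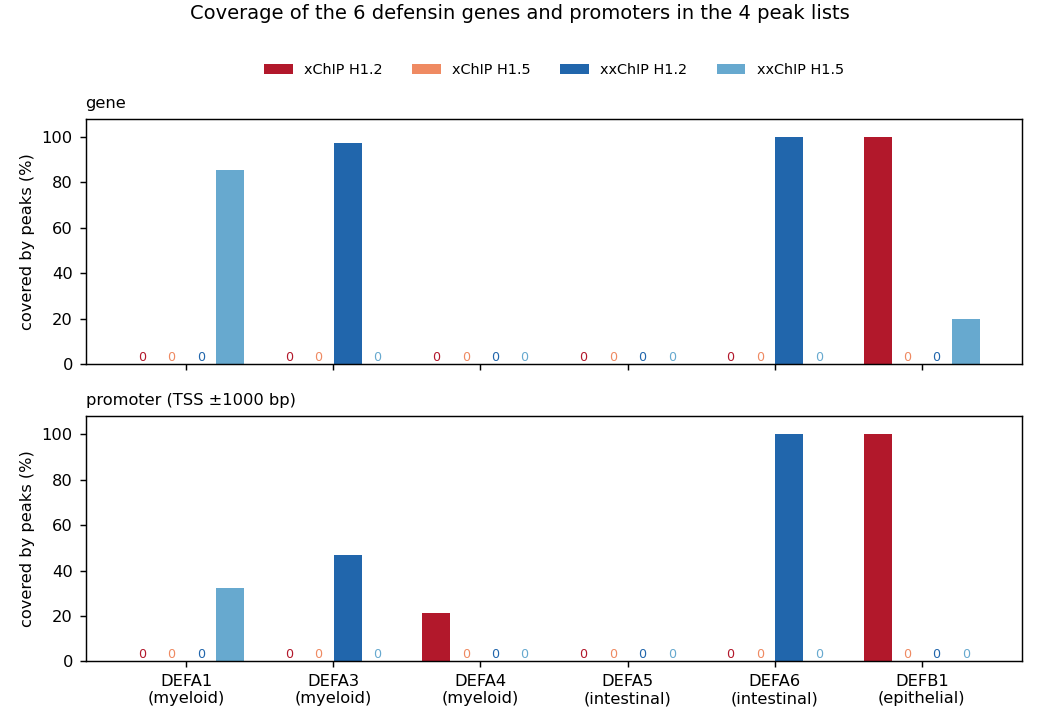
Percent of each gene (upper panel) and of each promoter, TSS ± 1000 bp (lower panel), covered by the peaks of the 4 lists, 1 bar per list and a 0 where no peak was called. The tall bars of DEFA1, DEFA3 and DEFA6 belong to xxChIP lists, the tall bar of DEFB1 to xChIP H1.2, and DEFA5 has none.

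DEFA1 encodes an abundant peptide of the neutrophil azurophil granule. It was covered to 85.4% by xxChIP H1.5 and to 0% by each of the other lists. The peak that covers it, at chr8:6820005-6837258, is 17254 bp long, a length reached by 1.73% of the xxChIP H1.5 peaks (2391 of 138491), whose median is 2033 bp. It took in exons 2 and 3 whole and ended 356 bp downstream of the TSS, leaving exon 1 free, so that 32.2% of the promoter window was covered. On the far side it ran through the pseudogene DEFA10P, which was covered to 100%. The nearest peak of xChIP H1.2 was 5464 bp upstream of the TSS, that of xxChIP H1.2 was 5539 bp downstream, and that of xChIP H1.5 was 30827 bp away.

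DEFA3 differs from DEFA1 in its coding sequence by very little and is also a neutrophil gene. Only xxChIP H1.2 had a peak in it, which covered 97.5% of the gene, and the coverage was 0% in the remaining lists. The xxChIP H1.2 peak, at chr8:6872582-6875758, is 3177 bp long. It held exons 2 and 3 whole and 15 of the 76 bp of exon 1, ended 61 bp downstream of the TSS and took in 47% of the promoter window. A peak of xChIP H1.5 at chr8:6868441-6872912 came within 2907 bp of the TSS on the downstream side, beyond the end of the gene. It was the only xChIP H1.5 peak between DEFA6 and DEFA5. The nearest xxChIP H1.5 peak was 14937 bp upstream.

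DEFA4, the third myeloid gene, lies outside the repeated stretch. None of its exons or introns met a peak of any list. A peak of xChIP H1.2 at chr8:6796404-6798027 began 576 bp upstream of the TSS and covered 21.2% of the promoter window (425 bp). Farther upstream, 3156 bp from the TSS, an xxChIP H1.2 peak of 5545 bp began at chr8:6798984-6804528. The H1.5 peaks were distant, at 18521 bp in xChIP and 16721 bp in xxChIP.

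The intestinal members did not resemble each other. DEFA6 and its whole promoter window were covered to 100% by a single xxChIP H1.2 peak of 3349 bp at chr8:6781724-6785072, which held both exons, and to 0% by the other lists. Its nearest xChIP peaks lay downstream, at 6291 bp for H1.5 and 8287 bp for H1.2, and the nearest xxChIP H1.5 peak was 28951 bp away. DEFA5, 1436 bp long and the member nearest to the centromere, was covered to 0% by all 4 lists, gene and promoter alike. Just outside its promoter window, however, both xxChIP lists had a peak, of H1.2 at chr8:6915480-6917710, 1219 bp upstream of the TSS, and of H1.5 at chr8:6915724-6918869, 1463 bp upstream. The xChIP H1.5 list followed 4852 bp upstream and xChIP H1.2 13435 bp upstream.

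DEFB1 was the only member with a gene-body peak in both protocols. The xChIP H1.2 peak over it, at chr8:6702710-6741890, is 39181 bp long and covered the gene and its promoter to 100%. Peaks of that length or more made up 1.6% of the xChIP H1.2 list (2287 of 142926), whose median was 2335 bp. The whole of this peak lies within the lncRNA GS1-24F4.2, which runs on the opposite strand and overlaps DEFB1. Within the same gene, xxChIP H1.5 covered 19.8%, a peak of 1457 bp at chr8:6731100-6732556 that falls wholly in the intron, and it covered 0% of the promoter. In xChIP H1.5 and xxChIP H1.2 the gene was free of peaks, with the nearest 11156 bp downstream and 7667 bp upstream of the TSS, respectively.

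**Figure D2:**
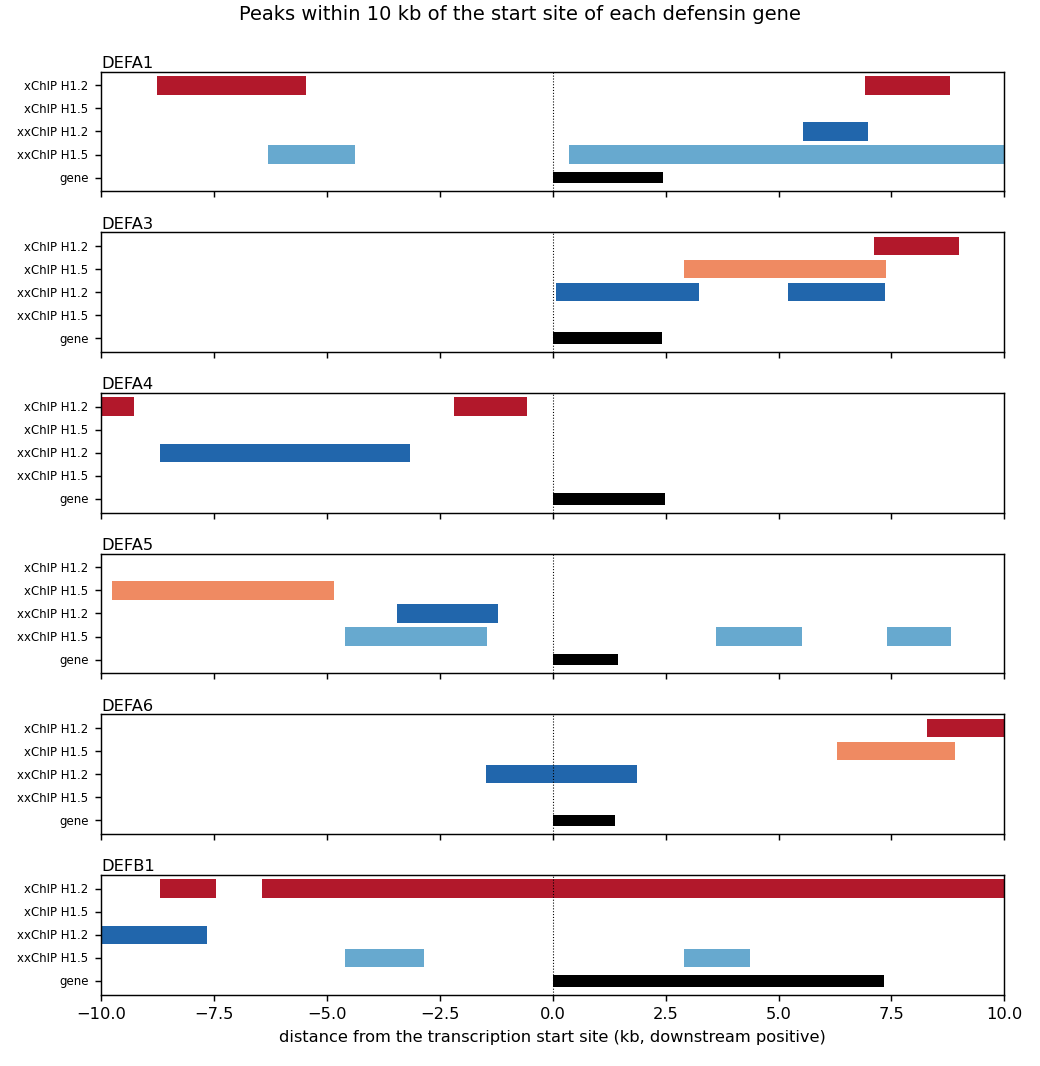
Peaks of the 4 lists within 10 kb of the TSS of each member, drawn in the direction of transcription, with the gene as a black bar. Peaks of xxChIP lie on DEFA1, DEFA3 and DEFA6, peaks begin 576 bp upstream of DEFA4 and 1219 bp upstream of DEFA5, and a peak of xChIP H1.2 extends across DEFB1.

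Myeloid and intestinal genes were compared as groups of 3 and 2 genes. The 7360 bp of the myeloid genes were covered to 0% by either antibody in xChIP, and to 32.2% (H1.2) and 28.4% (H1.5) in xxChIP. The 2816 bp of the intestinal genes were again covered to 0% by either antibody in xChIP, and to 49% (H1.2) and 0% (H1.5) in xxChIP. Each nonzero value rests on a single gene: DEFA3 and DEFA1 for the myeloid group and DEFA6 for the intestinal group. Each group also holds a gene with no gene-body peak in any list (DEFA4 and DEFA5). With 2500 bp added on either side and coverage scaled to the genes' own length, xxChIP H1.5 covered 304 bp of the intestinal genes in place of 0, and xxChIP H1.2 covered 1039 bp of the myeloid genes in place of 2368. Counting only bases in no repeated 50-mer, a setting chosen after seeing the data, the scaled myeloid values became 486 bp in place of 2368 (xxChIP H1.2) and 0 bp in place of 2088 (xxChIP H1.5), since DEFA1 has no such base and DEFA3 has 172.

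Within 10 kb of each TSS the lists separated the members in another way. The xxChIP H1.2 list covered between 7.27% (DEFA1) and 27.7% (DEFA4) of this stretch, and each of the 6 members lay above the median of all genes, 6.25%. A median for genes of 1 to 10 kb was not computed here. Over 10-kb windows of the genome, a shorter stretch, the median of this list was 11.3%, above DEFA1 and DEFA5 (11.2%). The peaks behind the DEFA3 value of 26.6% have 0% and 28.7% unique 50-mers, and the peak behind the DEFA1 value has 37.6%. The xChIP H1.2 list covered 0% at DEFA5, 8.57% at DEFA6, 9.38% at DEFA3, 11.7% at DEFA4, 25.9% at DEFA1 and 88.4% at DEFB1, and only DEFB1 lay above the median of 32.4%. Coverage by xxChIP H1.5 was 57.9% at DEFA1, 32.3% at DEFA5 and 16% at DEFB1, and 0% at DEFA3, DEFA4 and DEFA6, with a median of 5.23% over all genes. For xChIP H1.5 it was 24.6% at DEFA5, 22.4% at DEFA3, 13.1% at DEFA6 and 0% at the rest (median 11.1%). DEFA4 and DEFA6 lie 12230 bp apart, so part of this stretch is shared between them.

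The region from 6.5 to 7.0 Mb was then divided into 50 windows of 10 kb. Peaks of xChIP H1.2 were present in 39 windows, of xChIP H1.5 in 20, of xxChIP H1.2 in 25 and of xxChIP H1.5 in 22. Over 283565 windows of the genome the shares with a peak were 61.6%, 53.2%, 58.5% and 54.9%. Of the bases of the region, xChIP covered 32.9% (H1.2) and 10.2% (H1.5) and xxChIP 11.9% (H1.2) and 11.8% (H1.5), where the medians of 5693 stretches of 500 kb were 19.6%, 14.9%, 18.6% and 15.8%. Only the xChIP H1.2 value lay above its median, with 1517 of the 5693 stretches covered more. For the other lists 4622, 4259 and 3826 stretches were covered more. Over the 286 stretches of chromosome 8 the medians were 20.1%, 15.5%, 13.8% and 12.6%, nearer to the region in xxChIP. Of these 286, the numbers covered more were 67, 253, 173 and 157.

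**Figure D3:**
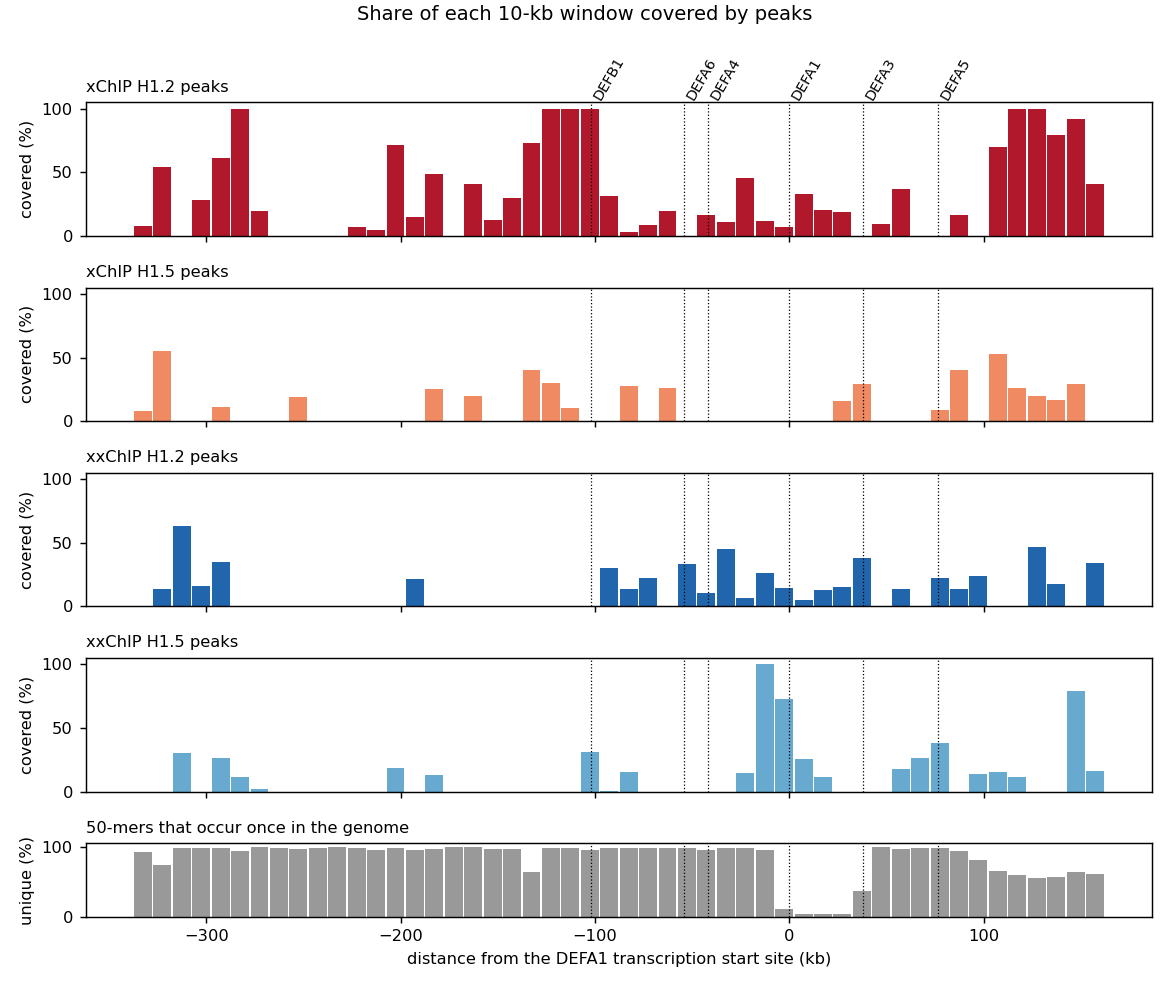
Percent of each 10-kb window covered by the peaks of the 4 lists, and in the lowest panel the percent of its 50-mers that occur once in the genome, against distance from the DEFA1 TSS in kb, with dotted lines at the TSS of the 6 members. Bars of xChIP H1.2 reach 100% at DEFB1, beyond DEFA5 and in a window far before DEFB1, bars of xxChIP H1.5 reach 100% and 72.6% next to and at DEFA1 and 78.9% beyond DEFA5, and unique sequence drops between DEFA1 and DEFA3.

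The alpha-defensin genes themselves, the 132043 bp from DEFA6 to DEFA5, were less covered by both xChIP lists than the sequence on either side. Of the 50-mers of this span 65.4% are unique, compared with 95.6% before it and 69.6% after it. Inside the span, from DEFA1 to DEFA3, 6.7% are unique. Only uniquely mappable reads were kept, and the part of repeated sequence in the values below was not tested. Of this span 15.9% was covered by xChIP H1.2, compared with 33.2% of the 282218 bp before it and 58.1% of the 85739 bp after it. The xChIP H1.5 list covered 3.39% of the span, 9.6% before and 22.6% after it. By contrast, xxChIP H1.2 covered 16.4% of the span, above the 7.81% before it and close to the 18.5% after it. For xxChIP H1.5 the span held the highest value, 20.9% against 5.29% before and 19.5% after. Most of the 27537 bp covered there belong to 1 peak, the one of 17254 bp over DEFA1, in which 60.7% of 50-mers are unique. This peak also adds to the bases covered in xxChIP alone. Bases covered in xxChIP alone made up 25.9% of the span and those covered in xChIP alone 13.1%. Before the span the order was the opposite (7.4% and 31.9%), and after it as well (10.8% and 41.9%). No base of the 500 kb was covered by all 4 lists. The share covered by no list was 55% in the span, close to the 56.5% before it, and 23.1% after it. These shares by protocol were not computed over the genome.

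Single windows show where these values come from. The window that holds the TSS and exon 1 of DEFB1 (chr8:6730001-6740000) had a coverage of 100% in xChIP H1.2 and of 31.4% in xxChIP H1.5, and the windows on its telomeric side, chr8:6710001-6720000 and chr8:6720001-6730000, were also covered to 100% by xChIP H1.2. At DEFA1 the window chr8:6830001-6840000 had a coverage of 72.6% in xxChIP H1.5, beside 14.5% in xxChIP H1.2. Its neighbour chr8:6820001-6830000 was covered to 100% by xxChIP H1.5. The window of DEFA3 (chr8:6870001-6880000) had a coverage of 37.8% in xxChIP H1.2, beside 29.1% in xChIP H1.5, with 0% in the remaining lists. At DEFA5 (chr8:6910001-6920000) the values were 38% for xxChIP H1.5, 22.3% for xxChIP H1.2, 8.88% for xChIP H1.5 and 0% for xChIP H1.2.

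DEFA1 and DEFA3 lie in tandem copies, and the hg19 assembly holds a further protein-coding copy, DEFA1B (ENSG00000240247, chr8:6854288-6856720), between them. The TSS of the copies are 19106 and 19099 bp apart. In the stretches of 9.5 kb on either side of each TSS, the longest alignments were 99.73% identical over 15358 bp (DEFA1 and DEFA1B), 98.1% over 13881 bp (DEFA1B and DEFA3) and 97.22% over 10240 bp (DEFA1 and DEFA3). DEFA4 and DEFA5 were less alike to these copies, at 76% over 1413 bp and 74.6% over 547 bp. Because the authors kept only uniquely mappable reads, the share of 50-mers that occur once in the genome was computed. It was 1.96% in DEFA1 and 26.2% in DEFA3, against 98.1% to 99.9% in the other 4 members. With 100-mers the shares were 4.01% in DEFA1 and 41.5% in DEFA3. From DEFA1 to DEFA3, 40649 bp, 6.7% of the 50-mers were unique, and 100% of the repeated 50-mers had a further copy within the region.

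The copies carried partly different peaks. DEFA1B itself met no peak of any list, although its neighbour DEFA1 was covered to 85.4% by xxChIP H1.5 and DEFA3 to 97.5% by xxChIP H1.2. Within 9.5 kb of the TSS, xxChIP H1.5 covered 58.3% at DEFA1, 9.46% at DEFA1B and 0% at DEFA3, and xxChIP H1.2 covered 7.65%, 9.38% and 28%. In xChIP the values were 27.3%, 10.6% and 9.87% (H1.2) and 0%, 0% and 23.5% (H1.5), in the same order. At a matching place downstream of the genes the xxChIP H1.2 list did hold a peak in each copy, from 5539 to 6992 bp past the TSS at DEFA1, from 5420 to 7202 bp at DEFA1B and from 5220 to 7360 bp at DEFA3. The xxChIP H1.5 list had a peak at the same place of DEFA1B, from 5573 to 7369 bp, which its long peak at DEFA1, from 356 to 17609 bp, also covers, and none at this place of DEFA3. Downstream of the TSS the peaks of xChIP H1.2 lay at 6910 to 8801 bp (DEFA1), 3955 to 5971 bp (DEFA1B) and 7124 to 8999 bp (DEFA3), so the positions in DEFA1 and DEFA3 overlap and that in DEFA1B does not. A longer xChIP H1.2 peak, of 3297 bp, lay upstream of DEFA1 at chr8:6843078-6846374, and none was called within 9.5 kb upstream of the other copies. Of the 50-mers of this peak 1.43% are unique. In the recurring xxChIP H1.2 peaks 37.6% (DEFA1), 0% (DEFA1B) and 0% (DEFA3) are unique. Which copy the reads of these peaks came from was not tested.

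**Figure D4:**
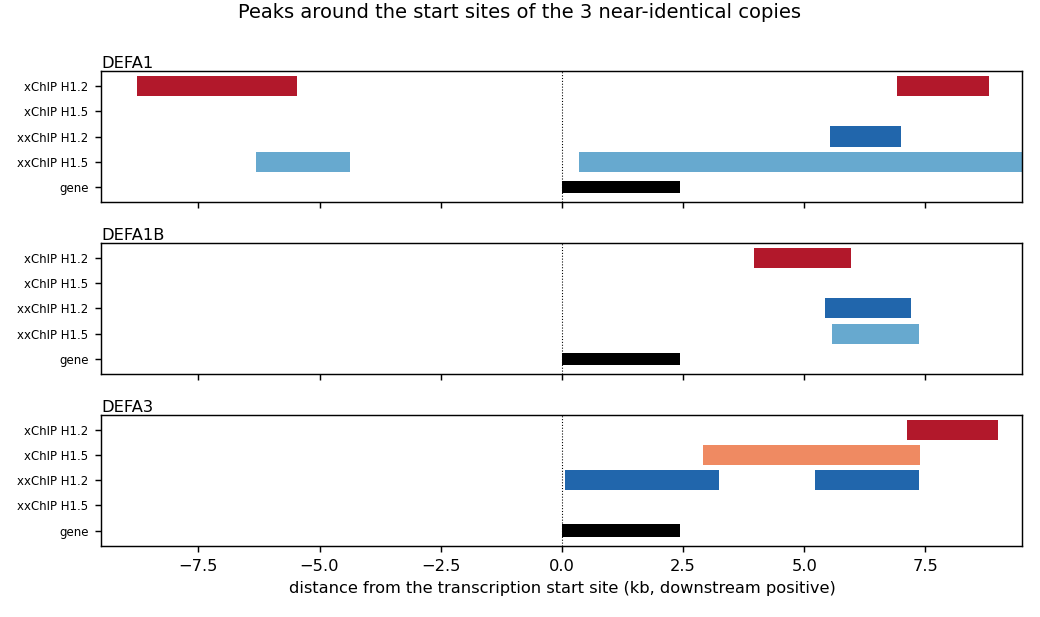
Peaks of the 4 lists within 9.5 kb of the TSS of DEFA1, DEFA1B and DEFA3, drawn in the direction of transcription, with the gene as a black bar. A peak of xxChIP H1.2 between 5220 and 7360 bp downstream recurs in all 3 copies, while the peaks over the gene bodies of DEFA1 and DEFA3 have no counterpart in DEFA1B. In the recurring peaks 37.6%, 0% and 0% of 50-mers occur once in the genome, in the order of the copies.

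Of the 90 peaks of the 4 lists in the region, 4 had no unique 50-mer at all, and all of these lie at the DEFA1B and DEFA3 copies. In 8 peaks, these 4 included, under 10% of 50-mers were unique. Among them are a peak of xChIP H1.2 (1.43%) and a peak of xxChIP H1.5 (4.75%) upstream of DEFA1. The number of copies in the HL-60/S4 genome and the way reads were placed among near-identical copies were not measured, and their part in the values of DEFA1, DEFA1B and DEFA3 was not tested. In the xxChIP H1.5 peak over DEFA1, 60.7% of 50-mers are unique. The window of DEFA10P, covered to 100%, has 95.8% unique 50-mers, and the window of DEFA1, covered to 72.6%, has 11.4%. DEFA1 itself has no base outside a repeated 50-mer. DEFA4, DEFA5, DEFA6 and DEFB1 lie outside the near-identical copies, with 98.1% to 99.9% unique 50-mers.

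Windows with under 90% unique 50-mers did not lack peaks. In the 14 windows with under 90% unique 50-mers the median coverage was 47.5% (H1.2) and 18.3% (H1.5) in xChIP, and 14.2% (H1.2) and 11.6% (H1.5) in xxChIP. In the other 36 windows it was 13.7%, 0%, 0% and 0%. These 14 windows are unlike each other. In the windows of the copies (chr8:6830001-6880000), 3.3% to 37.5% of 50-mers are unique, and xChIP H1.2 covered 0% to 33%. Beyond DEFA5, at chr8:6940001-6990000, 55.1% to 66.2% are unique, and xChIP H1.2 covered 70.1% to 100%. The windows on either side of these were covered to 0% and 40.7%. The part of repeated sequence in the difference between the 14 and the other 36 windows was not tested.

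**Figure D5:**
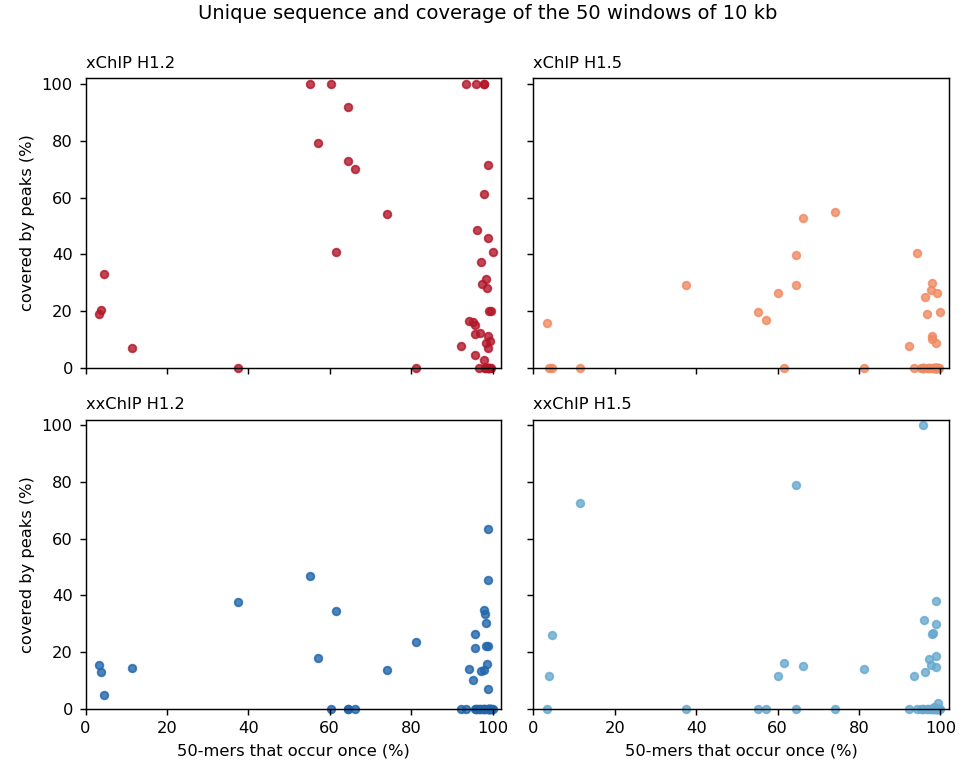
Percent of each of the 50 windows covered by peaks against the percent of its 50-mers that occur once in the genome, 1 panel per list and 1 point per window. Some windows with few unique 50-mers hold peaks in each list, and windows near 100% unique range from 0% to 100% covered in xChIP H1.2 and in xxChIP H1.5.

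Other genes of the same families and cell types were counted in the same way. Among 40 other alpha- and beta-defensin genes, xChIP peaks overlapped 10 (H1.2) and 8 (H1.5) and xxChIP peaks 13 (H1.2) and 18 (H1.5). The promoters overlapped numbered 4, 3, 8 and 13, in the same order. These were 10%, 7.5%, 20% and 32.5%, beside 48.2%, 21.6%, 8.78% and 7.92% of all promoters. The median coverage of these 40 genes was 0% in each list. In percent the genes overlapped were 25%, 20%, 32.5% and 45%, beside 55.9%, 28.3%, 13.9% and 15.1% of all genes of 1 to 10 kb. Azurophil granule genes are expressed by myeloid precursors beside the neutrophil defensins. Of the 7 (MPO, ELANE, PRTN3, AZU1, CTSG, BPI and LYZ), xChIP H1.2 overlapped 6, with a median coverage of 38.3%. The xChIP H1.5 list overlapped 2, xxChIP H1.2 1 and xxChIP H1.5 2. In percent these were 85.7%, 28.6%, 14.3% and 28.6%. The shares were 82.9%, 70.3%, 60.6% and 58% over all protein-coding genes, and 55.9%, 28.3%, 13.9% and 15.1% over genes of 1 to 10 kb. ELANE, PRTN3 and AZU1, which encode serine proteases or their homologue, were each covered to 100% by xChIP H1.2, BPI to 38.3%, MPO to 17.1% and LYZ to 2.48%, and the serine protease gene CTSG to 0%. The 3 myeloid defensin genes were also covered to 0% by this list. Among those 3, DEFA1 has 0 bases outside a repeated 50-mer, DEFA3 has 172 and DEFA4 has 2433. Unique sequence was not computed for CTSG. Of 6 other Paneth cell genes (REG3A, REG3G, PLA2G2A, ITLN2, MMP7 and SPINK4), the lists overlapped 3, 3, 4 and 3. In percent these were 50%, 50%, 66.7% and 50%, to be set beside the same shares as the granule genes.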

How the data were processed

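The 12 immunoprecipitated HL-60/S4 samples comprise 3 replicates per protocol and antibody, and the 6 Input samples do not enter any value. Paired-end reads had been mapped to hg19 by the authors using Bowtie2 with at most 2 mismatches, reads that mapped to several places had been dropped, and MUSIC with default settings had called the peaks, which were then merged over the 3 replicates. Versions and read length are not given in the sources used here. The authors deposited merged peak positions (3 columns, no score), which were read as BED intervals and are printed from base 1. Merging can lengthen peaks and hides replicate support.

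The annotation was GENCODE v44 lifted to GRCh37, which has the hg19 sequence, and no peak ran past a GRCh37 chromosome end. Overlap was counted from 1 shared bp. Windows with over 50% assembly gap were left out. Occurrences of every 50-mer and 100-mer were counted over the genome on both strands, and copies were aligned with megablast (BLAST 2.17.0). Python 3.11.15, numpy 2.4.6, numba 0.67.0 and matplotlib 3.10.9 were used. Coverage and k-mer counting were tested on simulated data.

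Samples were grouped by the labels. Named genes were the 6 members, whatever their values, DEFA1B and other genes or pseudogenes of the region that a described peak overlaps or adjoins, and the genes of the azurophil granule and Paneth cell lists. The members and lists were chosen with earlier results of these data known. Exon coverage, peak lengths and the stretches within 10 kb of each TSS were added after the peaks had been seen. No DNA or protein sequence is printed.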

Additional observations from a re-analysis of the deposited data

How the results depend on the processing

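Covered bases of the region, windows with a peak, member genes and promoters overlapped, and covered bases of the myeloid and of the intestinal genes were recomputed in each list. Of 104 recomputed values, 81 stayed within 1.5-fold, 17 were lower and 6 were higher by more. Values that were 0 before and after also count among the 81. The setting of peaks of at least 1000 bp could move none of its 24 values, because the shortest peak of the region is 1007 bp. With peaks of at least 2000 bp, xChIP H1.2 overlapped 1 promoter in place of 2, xChIP H1.5 was in 13 windows in place of 20, and xxChIP H1.5 covered 29906 bp of the region in place of 59197, was in 5 windows in place of 22 and overlapped 1 gene (DEFA1) in place of 2. When at least 50% had to be covered, the windows numbered 13 (H1.2) and 2 (H1.5) in xChIP and 1 (H1.2) and 3 (H1.5) in xxChIP, the promoters 1 in xChIP H1.2, 1 in xxChIP H1.2 and 0 in xxChIP H1.5, and the genes 1 in xxChIP H1.5. With 2500 bp added on either side of each gene, xChIP H1.2 overlapped 2 genes in place of 1 and xChIP H1.5 1 in place of 0. Covered bases, scaled to the genes' own length, then became 539 (H1.2) and 661 (H1.5) in xChIP in the myeloid genes, both 0 before, 1039 in place of 2368 for xxChIP H1.2 in the myeloid genes, and 304 in place of 0 for xxChIP H1.5 in the intestinal genes. Promoters of TSS ± 500 bp gave 1 in place of 2 for xChIP H1.2, and those of TSS ± 2500 bp gave 2 in place of 1 for xxChIP H1.5. These settings count fewer peaks or other bases by construction, and no other cause was tested. Windows shifted by 5 kb, peak centres and, for the region and the intestinal genes, unique bases moved no value by over 1.5-fold. Using every transcript's TSS could move none of its 4 values, because each member has 1 annotated transcript. Gene by gene, the recount over unique bases has no value for DEFA1, in which every base lies in a repeated 50-mer. Pooled over the 3 myeloid genes, as chosen after seeing the data, it gave 486 bp in place of 2368 for xxChIP H1.2, 0 in place of 2088 for xxChIP H1.5 and 0 in both xChIP lists, from 2605 bases of which 2433 are in DEFA4. No paired analysis was possible because the deposited lists hold replicates already merged, and leaving out a replicate was not possible for the same reason. Depth is unknown, so the lists do not show how close an empty gene was to a call.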

Other observations

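Beside the members, the region showed long stretches without any peak and a few pseudogenes wholly covered by a single list. AGPAT5, which encodes an acyltransferase of phospholipid synthesis and spans 52862 bp, was covered to 3.58% by xChIP H1.5 and to 0% by the other 3 lists. The longest stretch without a peak of any list, 33413 bp at chr8:6585900-6619312, begins in this gene and ends past it. The next, of 22012 bp at chr8:6561995-6584006, reaches from MCPH1-AS1 into AGPAT5, and the one after that, of 14054 bp at chr8:6852766-6866819, holds DEFA1B and the pseudogene DEFT1P2. The 10-kb windows in which this last stretch lies have 3.89% and 3.3% unique 50-mers, so few uniquely mappable reads could fall there. How often stretches of such length occur over the genome was not computed. Of the 7 defensin pseudogenes of the region, DEFA9P and DEFT1P were covered to 100% by xChIP H1.2, DEFA10P was covered to 100% by xxChIP H1.5, and the others met no peak. In the peak over DEFT1P 1.43% of 50-mers are unique. XKR5 was covered to 19.7% by xChIP H1.2, to 7.28% by xChIP H1.5 and to 0% by both xxChIP lists. The lncRNA GS1-24F4.2, which overlaps DEFB1, was covered to 84.7% (H1.2) and 16% (H1.5) in xChIP, and to 0% (H1.2) and 6.44% (H1.5) in xxChIP. Beyond DEFA5, the 29104-bp xChIP H1.2 peak at chr8:6942993-6972096 fell in sequence of which 57.9% of 50-mers are unique. These values rest on 1 merged list each and were not tested.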
